A study of Oryza sativa with 6 samples.

Results

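The genes described here are 63 rice genes that were near silent in the roots of watered plants and expressed under water deficiency (WD), chosen by their own values: at most 4 FPKM in control and over 8 FPKM both after 2 d and after 3 d of WD. FPKM is fragments per kilobase of the gene scaled to the number of mapped fragments, so it can be compared between genes. They come from 63985 entries (assembled transcript loci) in the deposited tables. Of these, only the 8457 that carry an RGAP locus name and start in the first part of chromosome 1, 2, 3, 5, 6, 8 or 12 could be chosen, below 10100, 6000, 4900, 7400, 11100, 11400 and 5100 kb of these chromosomes in that order. In these parts 4.85% of the named entries shared their name with another entry, against 15.7% elsewhere, and the locus numbers followed the position in order, with a rank correlation of at least 0.9999 in each part.

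The libraries were made from roots of 4-week-old seedlings of the japonica cultivar Chilbo, grown in soil in pots in an incubator. There were 2 libraries each from roots after 2 d and after 3 d without irrigation and from roots of well-watered control plants, with the same control for both times. All groups share the cultivar and carry no transgene or mutation that the labels name. Each group has 1 FPKM per entry, pooled over its 2 libraries, so no spread between libraries, no test between groups and no depth per library stands behind the values below. All are descriptions, and the choice of the 63 genes fixes that each is higher under WD.

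As background, WD slows growth and changes which genes root cells transcribe. Much of this answer in plants runs through the hormone abscisic acid and through transcription factors of the DREB, bZIP, NAC and MYB families, and its best known products are protective proteins such as dehydrins, chaperones and enzymes that make compatible solutes. Genes of this kind are often close to silent in watered vegetative tissue.

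The locus names of the 63 genes, 67 names in all because 4 entries list a pair of names, have 0 descriptions in the study's supplementary tables and 0 matches in the RefSeq gene table, which is of another assembly. The genes are therefore called by locus name, with no role given. For the same reason the root markers could not be looked up. Those supplementary tables include the study's lists of genes changed under WD, so none of the 63 genes is described in these lists. The paper filtered the lists by an FPKM over 4, a p-value and a fold change, unlike the rule for the 63. Why the lists describe none of the 63 genes was not tested. In whole roots, a change in the number of cells of a type and a change in the RNA per cell cannot be told apart.

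At most 4 FPKM in control was the common state: 6040 of the 8457 named entries were there, and 2819 of them were listed at 0 in all 3 groups. Of these 6040 near-silent entries the 63 genes make up 1.04%, while 5761 stayed at 4 FPKM or less at both times. Seen from the other side, 1624 named entries were over 8 FPKM at both times of WD, and 3.88% of them were among the 63. With 1 FPKM added to each value, all 63 had a log2 ratio to control over 1 at both times, which the rule largely fixes. Of all 63985 entries 4.04% passed this ratio after 2 d and 5.62% after 3 d, and of the named entries in the 7 parts 4.21% and 6.07%.

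As a set, the 63 genes summed to 95.0 FPKM in control, 4688 FPKM at 2 d and 6235 FPKM at 3 d. This was 0.109%, 4.71% and 5.31% of the summed FPKM of the named entries in the same chromosome parts. The median gene was at 1.48 FPKM in control, 20.6 FPKM at 2 d and 23.6 FPKM at 3 d. On the log2 scale of FPKM + 1, the ratio to control had a median of 3.68 after 2 d, between 1.07 and 9.62, and of 3.88 after 3 d, between 1.26 and 10.60. The median over all named entries in these parts was 0 at both times, but 2819 of these 8457 entries were at 0 in all groups. Entries of the whole series over 4 FPKM in all groups had medians of 0.13 after 2 d and 0.17 after 3 d, with no FPKM added.

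**Figure D1:**
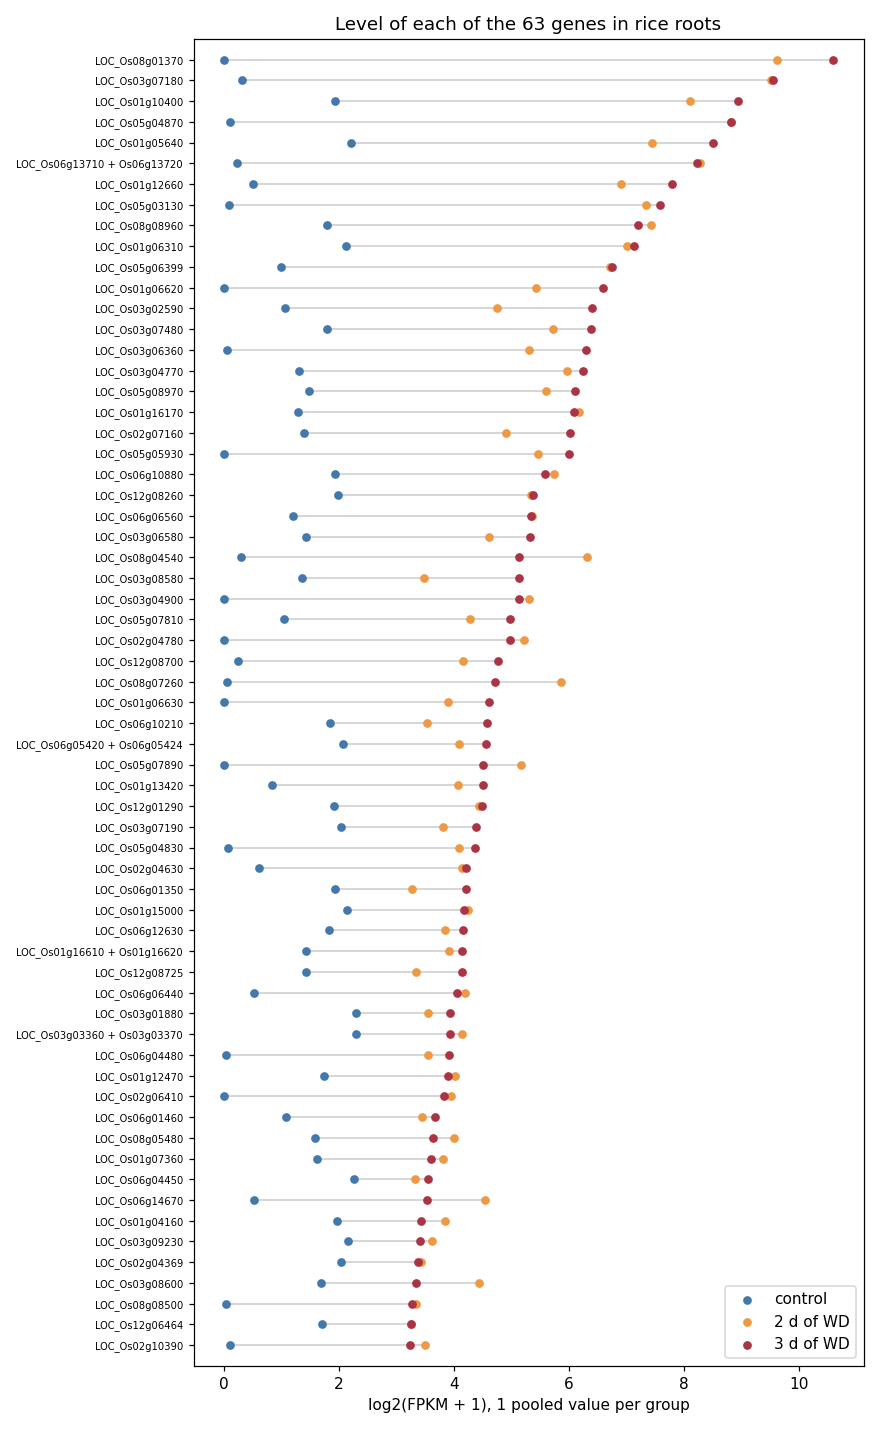
Level of each of the 63 genes, ordered by the level after 3 d, as log2(FPKM + 1) on the horizontal axis, with 1 pooled value each for control, 2 d and 3 d of WD. The control points lie at or left of 3.90 FPKM, most genes end between 8 and 50 FPKM under WD, and 11 genes stand above 100 FPKM after 3 d.

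The limits also allow an opposite and several mixed patterns, and these were counted in the same 8457 entries. Genes high in control and low at both times of WD were more frequent, with 161 entries over 8 FPKM in control and at most 4 FPKM after 2 d and 3 d. By contrast, 7 entries were low in control and after 2 d and high only after 3 d, and 1 was high only after 2 d. Low values confined to 1 time of WD were 20 after 3 d and 0 after 2 d. The 3 patterns that are low in control and high under WD thus hold 71 entries, of which 63 were high at both times. Entries over 4 and at most 8 FPKM at a time fall in no pattern, so the 71 are not all near-silent entries that rose. Of the near-silent entries, 216 were neither among the 63 nor at most 4 FPKM at both times, and most of these are left out here.

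**Figure D2:**
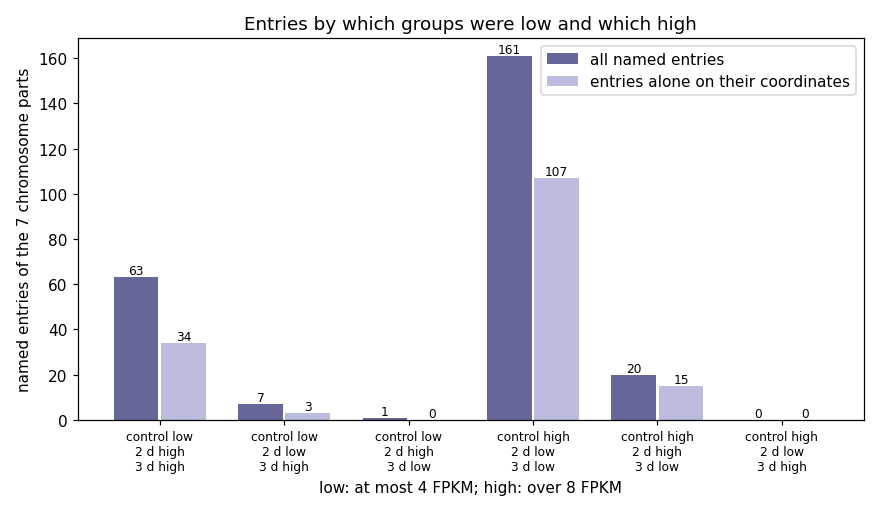
Number of named entries in the 7 chromosome parts by which groups were low (at most 4 FPKM) and which high (over 8 FPKM), for all named entries (dark bars) and for those that share their listed coordinates with no other entry (pale bars). Low in control and high at both times holds 63 and 34 entries, the opposite pattern 161 and 107, and low only after 2 d holds 0 and 0.

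Some genes became abundant. After 3 d, 10 of the 63 were among the 100 highest of the 8457 named entries and 37 among the 1000 highest, whereas in control none reached the 1000 highest. The 11 genes over 100 FPKM after 3 d held 75.4% of the summed FPKM of the 63 at that time and 72.7% after 2 d. Below them were 9 over 50 and at most 100 FPKM, 17 over 20 and at most 50 FPKM, and 26 at 20 FPKM or less after 3 d.

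LOC_Os08g01370, listed on chromosome 8 between 227014 and 234423 of the IRGSP 1.0 build, was the highest. It was listed at 0 FPKM in control, at 788 FPKM after 2 d and at 1546 FPKM after 3 d. It then ranked 4 among all named entries of the parts and alone held 24.8% of the summed FPKM of the 63 genes. No ratio is given against a value of 0.

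LOC_Os03g07180, on chromosome 3 between 3673192 and 3679971, was at 0.236 FPKM in control, 732 FPKM at 2 d and 747 FPKM at 3 d. With 1 FPKM added, 3 d over control came to 9.24 on the log2 scale. Its level did not move between the times beyond 1.02-fold. LOC_Os05g04870, on chromosome 5 between 2345387 and 2346843, behaved alike, with 0.0707 FPKM in control, 448 FPKM at 2 d and 449 FPKM at 3 d. The entry naming LOC_Os06g13710 and LOC_Os06g13720, on chromosome 6 between 7600955 and 7605812, was at 0.169 FPKM in control, 310 FPKM at 2 d and 298 FPKM at 3 d. These 3 genes had reached their level by the second day.

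LOC_Os01g10400, on chromosome 1 between 5477313 and 5479836, was higher again on the third day, with 2.80 FPKM in control, 273 FPKM at 2 d and 493 FPKM at 3 d, 1.80-fold over 2 d. LOC_Os01g12660, on chromosome 1 between 6966626 and 6976710, was at 0.415 FPKM in control, 119 FPKM at 2 d and 222 FPKM at 3 d, and LOC_Os01g05640, between 2664481 and 2695085 on the same chromosome, at 3.61, 173 and 362 FPKM. Both of the last pair share their listed coordinates with other entries, described further below. Together with LOC_Os08g01370 these 4 genes were 1.80- to 2.09-fold higher after 3 d than after 2 d.

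The remaining genes over 100 FPKM after 3 d changed less between the times. LOC_Os05g03130, on chromosome 5 between 1246285 and 1247010 and with 725 bp the shortest listed span of the set, was at 0.0596 FPKM in control, 161 FPKM at 2 d and 190.4 FPKM at 3 d. LOC_Os08g08960, on chromosome 8 between 5207259 and 5209569, was at 2.45, 172 and 147 FPKM, and LOC_Os01g06310, on chromosome 1 between 2998438 and 3001204, at 3.38, 128 and 139.9 FPKM. LOC_Os05g06399, on chromosome 5 between 3283582 and 3287823, was at 0.985, 104 and 106 FPKM. Of the 11 genes, 7 are alone on their listed coordinates, and LOC_Os01g05640, LOC_Os01g12660, LOC_Os03g07180 and LOC_Os08g01370 are not.

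How silent the genes were in control varied. Of the 63, 8 were listed at 0 FPKM, 15 over 0 and at most 0.5 FPKM, 3 over 0.5 and at most 1 FPKM, 13 over 1 and at most 2 FPKM, and 24 over 2 FPKM. The 26 genes at most 1 FPKM in control had a median of 37.3 FPKM at 2 d and 28.4 FPKM at 3 d, and 7 of them passed 100 FPKM after 3 d. The 37 genes over 1 FPKM in control had medians of 16.6 FPKM at 2 d and 21.4 FPKM at 3 d, and 4 of them passed 100 FPKM. By these medians the genes at most 1 FPKM in control were not the lower group under WD. Single genes differed: LOC_Os02g10390, the lowest of the 63 after 3 d at 8.43 FPKM, was at 0.0687 FPKM in control.

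Apart from LOC_Os08g01370, the genes listed at 0 FPKM in control reached between 13.1 and 95.5 FPKM after 3 d. LOC_Os01g06620, on chromosome 1 between 3122887 and 3125325, was at 42.0 FPKM at 2 d and 95.5 FPKM at 3 d. LOC_Os05g05930, on chromosome 5 between 2969453 and 2972797, was at 42.9 and 62.98 FPKM, and LOC_Os01g06630, listed on the coordinates of LOC_Os01g06620, at 13.9 and 23.6 FPKM. These 3 and LOC_Os08g01370 were higher after 3 d than after 2 d.

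The other 4 genes at 0 FPKM in control were lower after 3 d than after 2 d. LOC_Os03g04900, on chromosome 3 between 2335677 and 2343175, was at 38.4 FPKM at 2 d and 33.9 FPKM at 3 d. LOC_Os02g04780, on chromosome 2 between 2192180 and 2194033, was at 36.2 and 30.5 FPKM, and LOC_Os02g06410, between 3204085 and 3206334, at 14.5 and 13.1 FPKM. LOC_Os05g07890, on chromosome 5 between 4262523 and 4263785, was at 34.8 and 21.7 FPKM. A value of 0 is given here as listed, and what it means for the transcript was not tested.

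Between the second and the third day the genes moved both ways. After 3 d 38 of the 63 genes (60.3%) were higher than after 2 d, against 57.8% of the 1624 named entries over 8 FPKM at both times. The median log2 ratio of 3 d to 2 d was 0.13, against 0.07 in those entries. A step of at least 1.5-fold upward was seen in 18 genes (28.6%, background 9.91%) and one downward in 5 genes (7.94%, background 8%), and 40 genes lay within 1.5-fold. The levels at both times had entered the choice of genes, so these shares carry no test.

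**Figure D3:**
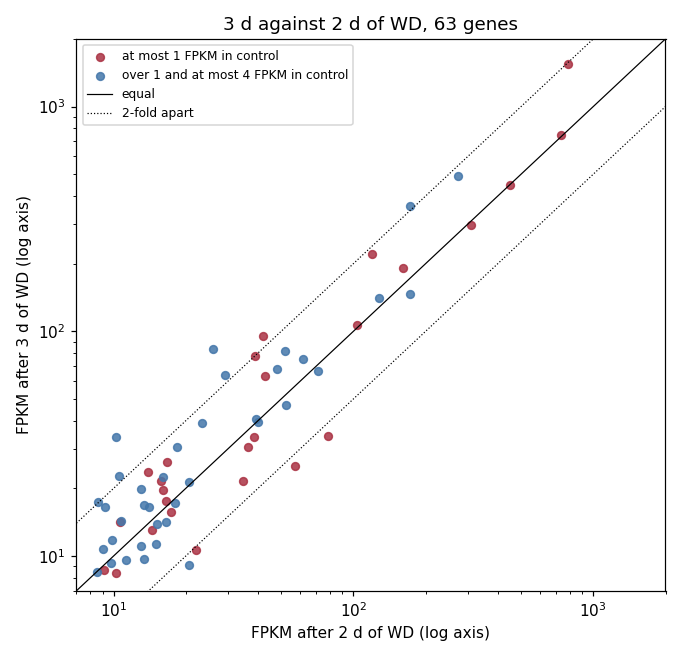
FPKM after 3 d (vertical) against FPKM after 2 d of WD (horizontal) for the 63 genes, both on log axes, with the line of equality and dotted lines 2-fold from it. Red points are the 26 genes at most 1 FPKM in control and blue points the 37 others, 7 genes lie at least 2-fold higher after 3 d and 4 at least 2-fold lower, and both colours occur on each side.

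At least 2-fold higher after 3 d were 7 genes. LOC_Os03g08580, on chromosome 3 between 4415571 and 4419382, was at 1.56 FPKM in control, 10.2 FPKM at 2 d and 34.0 FPKM at 3 d, a 3.33-fold step. LOC_Os03g02590, between 955870 and 962656, was at 1.08, 25.9 and 83.4 FPKM, 3.22-fold apart between the times. LOC_Os02g07160, on chromosome 2 between 3674169 and 3679955, was at 1.63, 29.1 and 64.2 FPKM. For these genes most of the level was gained on the third day.

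Among the others with such a step, LOC_Os06g10210, on chromosome 6 between 5226164 and 5231645, was at 2.57 FPKM in control, 10.6 FPKM at 2 d and 22.8 FPKM at 3 d. LOC_Os06g01350, between 212020 and 218294 on the same chromosome, was at 2.82, 8.62 and 17.4 FPKM. It shares its listed coordinates with a more abundant entry, given further below. LOC_Os01g06620, with a 2.27-fold step, and LOC_Os01g05640, with 2.09-fold, complete the 7.

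The 4 genes at least 2-fold lower after 3 d than after 2 d were still above control. LOC_Os08g04540, on chromosome 8 between 2256006 and 2270568, was at 0.226 FPKM in control, 78.4 FPKM at 2 d and 34.2 FPKM at 3 d. LOC_Os08g07260, between 4051995 and 4054635, was at 0.0414, 57.1 and 25.3 FPKM. Both are on chromosome 8 and both were 2.26- to 2.29-fold higher after 2 d. LOC_Os03g08600, on chromosome 3 between 4427841 and 4434516, was at 2.22, 20.6 and 9.11 FPKM, and LOC_Os06g14670, on chromosome 6 between 8249823 and 8253380, at 0.435, 22.1 and 10.6 FPKM. The fifth gene past 1.5-fold downward was LOC_Os05g07890, given above, and the next was LOC_Os01g04160, on chromosome 1 between 1832387 and 1839194, with 2.90, 13.4 and 9.71 FPKM.

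The share of near-silent entries that came on differed between the chromosome parts. It was 2.80% on chromosome 3, with 13 of 464 entries, and 0.446% on chromosome 8, with 6 of 1346 entries. On chromosomes 1, 2, 5, 6 and 12 it lay between 0.820% and 1.25%. Chromosomes 1 and 3 each held 13 of the genes, chromosome 6 held 12, chromosome 5 held 8, chromosome 2 held 6 and chromosome 12 held 5.

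Some of the genes lay beside each other. Of the 63, 12 (19.0%) were within 50 kb of another, in 6 pairs, with distances taken between listed spans. Of the other near-silent named entries 10.2% lay within 50 kb of one of the genes, and 14.3% of the other named entries over 8 FPKM at both times. LOC_Os01g06620 and LOC_Os01g06630 are listed on the same coordinates, and both were at 0 FPKM in control and higher after 3 d than after 2 d. LOC_Os03g07180 and LOC_Os03g07190, on chromosome 3 between 3680019 and 3685310, are 48 bp apart, but LOC_Os03g07190 reached only 12.97 FPKM at 2 d and 19.9 FPKM at 3 d from a control level of 3.09 FPKM. Neighbours did not share a time course in every pair. LOC_Os03g08580 and LOC_Os03g08600 have listed spans 8.46 kb apart, and the first was highest after 3 d and the second after 2 d.

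In the other pairs 1 gene was again far above its neighbour or both were low. LOC_Os05g04830, on chromosome 5 between 2325837 and 2328042 and 17.3 kb from LOC_Os05g04870, was at 0.0531 FPKM in control, 16.1 FPKM at 2 d and 19.7 FPKM at 3 d. LOC_Os06g04480, on chromosome 6 between 1921440 and 1923594, was at 0.0226, 10.6 and 14.1 FPKM, and LOC_Os06g04450, 8.41 kb before it, at 3.80, 9.05 and 10.7 FPKM. LOC_Os12g08700, on chromosome 12 between 4411698 and 4415903, was at 0.179, 16.8 and 26.2 FPKM, and LOC_Os12g08725, 38.7 kb on, at 1.69, 9.18 and 16.5 FPKM. The genes of these last 3 pairs were all listed higher after 3 d than after 2 d, but LOC_Os05g04870 by only 1.002-fold.

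Entries on the same listed coordinates matter for reading these values. Such entries can overlap, and without strand, which the sources do not mention, the reads of overlapping genes cannot be told apart. Of the 63 genes, 29 (46.0%) share their listed coordinates with at least 1 other entry, against 17.3% of the near-silent entries and 37.1% of the named entries over 4 FPKM in control and over 8 FPKM at both times. The listed spans had a median of 5605 bp, against 2368 bp in the other near-silent entries and 6678 bp in those expressed entries. Without the 29, 34 genes remain, of which 17 were higher after 3 d than after 2 d, against 21 of the 29.

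On these shared coordinates lie 42 further entries, 24 of them over 4 FPKM in some group. Of the 24, 8 (33.3%) had a log2 ratio of FPKM + 1 over 1 at both times and 4 (16.7%) under -1 at both times. In all entries of the parts over 4 FPKM in some group these shares were 10.2% and 18.6%. What each of these partners encodes is known here only where the study's lists of changed genes describe it, so the described ones are by that choice the ones that changed.

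The largest partner was LOC_Os01g05650, described as a metallothionein, a small cysteine-rich protein that binds metal ions. It was at 402 FPKM in control, 11238 FPKM at 2 d and 26220 FPKM at 3 d. The gene beside it, LOC_Os01g05640, had 0.897% of that level in control, 1.54% after 2 d and 1.38% after 3 d. Whether reads of the metallothionein gene enter the values of LOC_Os01g05640 was not tested.

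Other partners were also higher at both times of WD than in control. LOC_Os02g04640, described as a protein with a Myb-like DNA-binding domain a domain of many transcription factors, was at 8.05 FPKM in control, 99.9 FPKM at 2 d and 122 FPKM at 3 d, beside LOC_Os02g04630 at 0.527, 16.5 and 17.5 FPKM. LOC_Os06g01360, described as homogentisate 1,2-dioxygenase, an enzyme of tyrosine breakdown, was at 16.1, 53.9 and 82.6 FPKM, beside LOC_Os06g01350 with its step on the third day. LOC_Os08g04560 was at 0.0653, 14.7 and 3.97 FPKM and followed LOC_Os08g04540 in being highest after 2 d. It was the only named entry of the parts that was low in control and after 3 d and high after 2 d.

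Beside LOC_Os08g01370 lies LOC_Os08g01360, described as RING finger protein 13. RING finger proteins are commonly E3 ubiquitin ligases, which mark other proteins for breakdown. It was at 16.3 FPKM in control, 38.6 FPKM at 2 d and 41.2 FPKM at 3 d, so the gene at 0 FPKM in control overtook a neighbour that already had transcript. Just outside the control limit, the entry naming LOC_Os03g03340 and LOC_Os03g03350, described as a hypothetical protein, was at 4.01, 38.1 and 22.6 FPKM. It shares its coordinates with the entry naming LOC_Os03g03360 and LOC_Os03g03370, which was just inside.

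The 4 partners under -1 at both times lie in 4 places. LOC_Os01g12650, described as a protein with a reticulon domain, a family that shapes the endoplasmic reticulum, was at 39.5 FPKM in control, 11.7 FPKM at 2 d and 14.4 FPKM at 3 d, where LOC_Os01g12660 had 0.415, 119 and 222 FPKM. LOC_Os12g08270 was at 15.9, 3.61 and 2.68 FPKM, where LOC_Os12g08260, on chromosome 12 between 4208656 and 4219484, had 2.95, 39.4 and 40.7 FPKM. One of 2 entries naming LOC_Os05g05940, described as a stress-related protein, was at 21.97, 7.70 and 7.39 FPKM, beside LOC_Os05g05930. The second such entry was at 19.7, 15.8 and 19.7 FPKM. The fourth was an entry without a name beside LOC_Os01g05640, at 66.6, 28.9 and 26.02 FPKM.

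In 5 cases the partner bears the name of the gene itself and no other name. LOC_Os12g01290, on chromosome 12 between 165072 and 171555, was chosen for an entry at 2.77 FPKM in control, 20.6 FPKM at 2 d and 21.4 FPKM at 3 d, while its other entry was at 15.7, 23.6 and 27.4 FPKM. LOC_Os01g13420, on chromosome 1 between 7469544 and 7475926, had one entry at 0.780, 15.7 and 21.7 FPKM and another at 11.0, 8.61 and 10.11 FPKM. These loci were therefore not silent in control when both entries are read together. The same holds for LOC_Os06g04450, which is not among the 5. A partner naming it together with LOC_Os06g04460 was at 8.72 FPKM in control, 14.8 FPKM at 2 d and 17.6 FPKM at 3 d. The same-named partners of LOC_Os12g08700, LOC_Os12g08725 and LOC_Os01g05640 were at 1 FPKM or less in control.

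**Figure D4:**
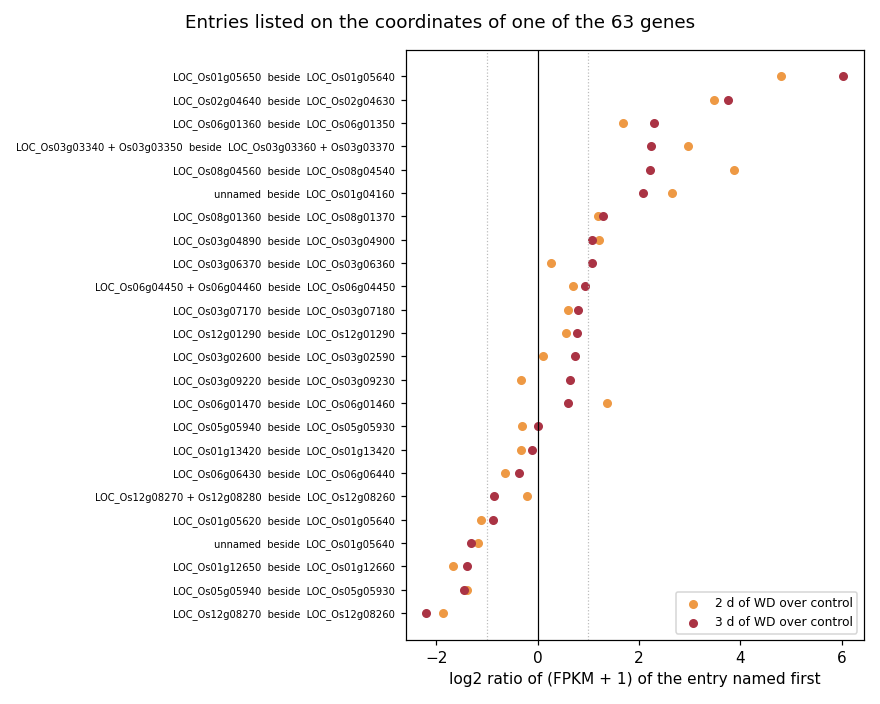
Log2 ratio of FPKM + 1, 2 d over control (orange) and 3 d over control (red), for the 24 entries over 4 FPKM in some group that are listed on the coordinates of one of the 63 genes, with the entry plotted named first. Of these, 8 lie right of 1 at both times, led by the metallothionein LOC_Os01g05650, and 4 lie left of -1 at both times.

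The nearest named entries on other coordinates were counted in the same way. Of 145 such neighbours outside the set, 54 were over 4 FPKM in some group, and of these 8 (14.8%) had a log2 ratio over 1 at both times and 5 (9.26%) under -1, against 9.83% and 17.8% of all named entries over 4 FPKM in some group. LOC_Os03g09250, described as inositol-3-phosphate synthase, the first enzyme of inositol synthesis, was at 39.6 FPKM in control, 166 FPKM at 2 d and 101 FPKM at 3 d, next to LOC_Os03g09230, on chromosome 3 between 4814434 and 4822723, at 3.46, 11.3 and 9.65 FPKM. LOC_Os01g06640, described as a basic helix-loop-helix protein, a family of transcription factors, was at 4.88, 26.1 and 21.4 FPKM, next to LOC_Os01g06620 and LOC_Os01g06630. LOC_Os06g10200, described as an adenylate kinase, which balances adenine nucleotides, was at 6.001, 31.4 and 43.2 FPKM, next to LOC_Os06g10210. Of the 5 under -1, LOC_Os12g08720 was at 11.6 FPKM in control, 1.45 FPKM at 2 d and 1.40 FPKM at 3 d, and LOC_Os06g10860 was at 5.27 FPKM in control and listed at 0 at both times of WD.

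LOC_Os02g04650, described as an activator of the ATPase of the chaperone HSP90, was at 10.00 FPKM in control, 23.8 FPKM at 2 d and 34.3 FPKM at 3 d. It follows LOC_Os02g04630 and its Myb-like partner, so 3 entries in a row were higher at both times of WD than in control.

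The limits cut through a continuous range of levels. Just inside the control limit were the entry naming LOC_Os03g03360 and LOC_Os03g03370, at 3.90 FPKM in control, 16.6 FPKM at 2 d and 14.2 FPKM at 3 d, LOC_Os03g01880, at 3.89, 10.8 and 14.3 FPKM, and LOC_Os06g04450. Just outside it were LOC_Os01g08290, at 4.03, 53.8 and 83.4 FPKM, and LOC_Os05g03920, at 4.05, 20.8 and 20.6 FPKM, beside the entry naming LOC_Os03g03340. After 3 d only 13 of the 63 genes were higher than LOC_Os01g08290.

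Just inside the limit after 2 d were LOC_Os12g06464, at 2.27 FPKM in control, 8.52 FPKM at 2 d and 8.48 FPKM at 3 d, LOC_Os06g01350 and LOC_Os06g04450. Just outside it were LOC_Os02g03820, with 7.82 FPKM after 2 d, LOC_Os08g15000, with 7.51 FPKM, and LOC_Os02g06754, with 7.35 FPKM. Just inside the limit after 3 d were LOC_Os02g10390, at 0.0687, 10.2 and 8.43 FPKM, LOC_Os08g08500, at 0.0292, 9.10 and 8.70 FPKM, and LOC_Os12g06464. Just outside it were LOC_Os03g01550, with 7.97 FPKM after 3 d, LOC_Os01g04324, with 7.81 FPKM, and LOC_Os01g10870, at 0, 22.4 and 7.59 FPKM.

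The 24 genes outside the rule for named genes fill the middle of the set. They were between 0.0393 and 3.46 FPKM in control with a median of 1.89 FPKM, between 9.76 and 71.2 FPKM after 2 d with a median of 17.7 FPKM, and between 9.36 and 82.1 FPKM after 3 d with a median of 21.5 FPKM. Of these, 14 were higher after 3 d than after 2 d. Among them LOC_Os03g06360, on chromosome 3 between 3183489 and 3190051, was at 0.0393, 38.7 and 77.4 FPKM, and LOC_Os03g07480, between 3796623 and 3804132, at 2.44, 51.7 and 82.1 FPKM.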

How the data were processed

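Roots of watered seedlings and of seedlings without irrigation for 2 d or 3 d were sequenced, with 2 libraries per group. The authors trimmed the reads with Cutadapt and Trim Galore at a quality of 20, aligned them to the IRGSP 1.0 genome by TopHat with RGAP gene models, and ran Cuffdiff. The deposited tables hold 1 FPKM per group and entry, pooled over both libraries by the authors. Tool versions, strand and scaling were not given in the sources used here. Also deposited were the authors' fold changes, test statistics, p and q values, which were not used.

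The 63 genes and the lists were chosen with earlier results of these data known. Entries were selected by FPKM and position, ratios were taken on log2(FPKM + 1), and surrounding entries were counted as changed past a log2 ratio of 1 or -1 at both times. Coordinates are those listed, 1 span for all entries of a region. Genes were named by a rule on level (the 12 highest after 3 d), ratio of 3 d to 2 d (the 6 highest and 6 lowest), neighbours within 50 kb, a control value of 0 and closeness to the limits. It names 39 genes. Genes described with their partners or neighbours, and LOC_Os03g06360 and LOC_Os03g07480, were picked after their values were seen. Descriptions of partners were copied from the study's lists, without values. Classes of gene product, promoter motifs and tissue markers had been planned and were not run, because locus names were paired with neither products nor sequences here. The code was tested on simulated data. Python 3.11.15, pandas 2.3.3 and numpy 2.4.6 were used.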

Additional observations from a re-analysis of the deposited data

How the results depend on the processing

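The number of genes follows its limits: 39 with a control limit of 2 FPKM, 26 with 1 FPKM, 176 with a limit under WD of 4 FPKM and 36 with 16 FPKM, against 63. These counts differ because the limits themselves differ. Among entries alone on their listed coordinates, a setting chosen after seeing the data, there were 34 genes, 17 of them higher after 3 d than after 2 d, with a median log2 ratio of 3 d to control of 3.92. In the other planned settings 54 to 63 genes were found, all of them among the 63. The share of near-silent entries that came on was 0.501% with a control limit of 1 FPKM and 4.48% of the entries over 0.5 FPKM in a group, against 1.04%.

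The median log2 ratio after 2 d, 3.68, was 4.73 with 0.1 FPKM added, 4.33 with none added and the genes at 0 left out, 3.59 with equal totals without the entries under 100 bp, and 3.56 with the median ratio of expressed entries set to 1. After 3 d, against 3.88, it was 5.01, 4.86, 3.70 and 3.72. Expressed entries (over 4 FPKM in all groups) had a median log2 ratio to control of 0.13 after 2 d and 0.17 after 3 d, which is the shift this last scaling removes. The median log2 ratio of 3 d to 2 d, 0.13, was 0.0293 with equal totals and 0.0859 with the median ratio set to 1, and 32 and 35 genes were then higher after 3 d, against 38.

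No paired analysis was possible because the deposited values are pooled over both libraries of a group, and no replicate was left out in turn for the same reason. The read depth per library is unknown, so no error is given for values near 0 FPKM in control.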

Other observations

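Genes that came on only on the third day had lower levels after 3 d than most of the 63. Their choice required at most 4 FPKM after 2 d, and that of the 63 over 8 FPKM. This difference is therefore a description tied to the limits and was not tested. The 7 named entries of the same chromosome parts that were at most 4 FPKM in control and after 2 d and over 8 FPKM after 3 d lay between 8.60 and 14.0 FPKM after 3 d. LOC_Os03g08834 was at 0.0418 FPKM in control, 1.55 FPKM at 2 d and 13.3 FPKM at 3 d, and LOC_Os03g03840 was listed at 0 FPKM in control and after 2 d and at 14.0 FPKM after 3 d. LOC_Os03g06400 is listed on the span that follows that of LOC_Os03g06360, one of the 63, together with LOC_Os03g06379 at 16.1, 13.8 and 16.4 FPKM and LOC_Os03g06390 at 7.82, 11.37 and 19.4 FPKM, and was at 0.940, 3.79 and 13.5 FPKM. Of the 7, 4 are on chromosome 3, which also had the highest share of near-silent entries that came on. That part holds 464 of the 6040 near-silent entries, and 7 entries are too few to describe a chromosome. The entries named here were picked after their values were seen.

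Entries without a locus name were outside the choice of genes. In the same chromosome parts 6 of them met the same limits, and 352 named entries met them in the rest of the genome.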
